A study of Mus musculus with 1931 samples.

Results

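*Dppa2*, *Dppa4*, *Dppa5a* and *Utf1* are 4 of the 20999 genes measured here by full-length single-cell RNA sequencing (SMART-seq2), and they were chosen as genes of pluripotent cells that trophoblast-like cells kept. Because the choice rested on levels in these same cells, their levels in trophoblast-like cells are given as a description. All 4 were in the table and above 0 in every group of cells. The cells came from rosette-to-lumen stage embryoids (RtL-embryoids), aggregates in which mouse embryonic stem cells (ESCs) sort into compartments resembling epiblast (Epi), visceral endoderm (VE) and extraembryonic ectoderm (ExE), the trophoblast next to the epiblast. Kermit ESCs, which carry GFP under *Oct3/4* control, gave the Epi-like compartment. 5-Factor ESCs with doxycycline (DOX)-inducible *Cdx2*, *Tfap2c*, *Eomes*, *Gata3* and *Ets2* gave the ExE-like one, and mCherry-transduced iGATA6 ESCs with DOX-inducible *Gata6* gave the VE-like one. DOX was given at 2 µg/ml and then withdrawn for a day, the embryoids were picked by hand and pooled, and cells were sorted by GFP, mCherry and the ExE surface protein CD40 into plates 3, 4 and 5, which are therefore technical splits of 1 pool. The 2D cultures were Kermit ESCs in 2i/LIF medium, induced trophoblast stem cells (iTSC) made from 5-Factor ESCs in trophoblast stem cell medium with FGF4 and heparin, and induced extraembryonic endoderm cells (iXEN) made from the iGATA6 line, each with its own plate. iTSC and iXEN also had DOX at 2 µg/ml followed by a day without it, and no DOX treatment is described for the 2i/LIF ESC. Each condition is thus 1 sample, and no test between conditions was possible; ESC line, culture, DOX treatment and plate cannot be told apart between the 2D groups.

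The 4 genes are textbook marks of pluripotent cells with different products. *Dppa2* and *Dppa4* encode SAP-domain proteins that bind chromatin together, keep bivalent promoters open to activation and switch on genes of the early embryo. *Dppa5a* encodes a KH-domain protein that binds RNA and is among the most abundant messages of ES cells. *Utf1* encodes a chromatin-bound cofactor that is a classical target of Oct4 and Sox2 and, in the embryo, is also transcribed in extraembryonic ectoderm.

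In the GRCm38 assembly with the Gencode vM21 annotation, *Dppa4* (ENSMUSG00000058550.15, chr16:48283733-48294237) and *Dppa2* (ENSMUSG00000072419.5, chr16:48303908-48319723) lie head to tail on the plus strand, 9.671 kb apart. *Dppa5a* (ENSMUSG00000060461.5, chr9:78367052-78368177, minus strand) has the KH-domain gene *Ooep* 7.932 kb away. *Utf1* (ENSMUSG00000047751.9) occupies chr7:139943789-139945112 on the plus strand, and its nearest neighbour is *Kndc1*, 2.252 kb away. RefSeq promoter sequence was at hand for *Utf1* alone among the 4. The bases that precede its annotated start (GRCm38.p6, chr7:139943606-139943788, plus strand, written 5′ to 3′) are shown because *Utf1* had the widest range between trophoblast-like cells, with the GC box letters GGGCGG in capitals:
*Utf1* upstream: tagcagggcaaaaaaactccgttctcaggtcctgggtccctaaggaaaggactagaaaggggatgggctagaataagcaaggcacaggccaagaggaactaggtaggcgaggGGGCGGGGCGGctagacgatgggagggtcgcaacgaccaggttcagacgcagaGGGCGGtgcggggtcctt
GC content was 59.6%. The GC box was found 3 times, beginning 71, 66 and 18 bases before the start, and the first pair shares 1 base. On either strand, 21.5% of 32851 RefSeq promoters held it in a window of the same length. Neither the octamer ATTTGCAT (1.17% of promoters) nor CATTGTT (2.51%) was found in this window, and CG occurred 10 times against a median of 4. Only these exact letters were searched, and the rest of the *Utf1* locus was not.

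Levels are given as TP10k, the deposited TPM (each transcript's share of all transcripts of a cell, corrected for transcript length) rescaled to a sum of 10000 per cell. Levels can be set side by side between genes. Cells with at least 2500 genes above 0 were used, 1406 of 1931 wells. This minimum kept 44.8% of ESC and 49.8% of iTSC wells, but 77.5% of iXEN, 82.2% of Epi, 82.2% of VE and 91.9% of ExE wells. Of the cells used 22.33% were in Epi wells, 22.40% in VE wells, 25.11% in ExE wells, and 10.10% were ESC, 10.03% iTSC and 10.03% iXEN. The labels do not say which wells hold which compartment. The grouping by well column was therefore checked against marker lists, and each cell was assigned the Epi, VE or ExE list with the highest mean ln(TP10k + 1). All cells of Epi wells (100%) and 98.4% of those of VE wells had their own list highest, but in ExE wells 76.8% did, with 47 cells highest for the VE list and 35 for the Epi list. Among iTSC, 81.6% had the ExE list highest and the remaining 26 cells the Epi list. ExE wells were divided by *Elf5*, a transcription factor of trophoblast stem cells, into cells with *Elf5* above 0 (Elf5+, 33.7% of ExE wells) and cells with *Elf5* at 0 (Elf5−), of which 94.1% and 67.9% had the ExE list highest. *Elf5* is itself on that list, so part of this difference is set by the division. Median genes per cell were 4823 to 5810 in the 3D groups and 8537 to 9093.5 in 2D, and within 3D higher on plate 3 than on plates 4 and 5. A share of cells above 0 can rise with the number of genes found, so shares are compared between 3D and 2D only with that in mind. 95% intervals of shares are exact binomial ones and cover counting error over cells only.

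*Dppa2* and *Dppa4* were highest in Epi wells and were near or above ESC levels in Elf5+ cells and iTSC. Mean *Dppa2* was 1.28, 1.21 and 1.504 TP10k in Epi wells on plates 3, 4 and 5, against 0.859, 1.05 and 0.787 in Elf5+ cells, 0.740, 0.660 and 0.818 in Elf5− cells, and 0.453, 0.339 and 0.456 in VE wells. In 2D, *Dppa2* stood at 0.788 TP10k in ESC, 0.972 in iTSC and 0.290 in iXEN. No VE plate reached the lowest plate of either ExE group, while the Elf5+ and Elf5− ranges overlapped and both contained the ESC value. Across ExE wells as a whole, *Dppa2* was 1.90-fold higher than in VE wells (plates 1.73 to 2.28-fold), and in iTSC it was 3.35-fold higher than in iXEN.

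*Dppa4*, the binding partner, was at 3.36, 3.42 and 3.81 TP10k in Epi wells on plates 3, 4 and 5. Elf5+ cells had 1.161, 1.78 and 1.82 TP10k, Elf5− cells 0.571, 0.671 and 0.714, and VE wells 1.01, 0.701 and 0.807. Every Elf5+ plate was above every Elf5− and VE plate, whereas Elf5− cells and VE wells overlapped. The 2D levels of *Dppa4* were 1.39 in ESC, 2.02 in iTSC and 0.748 TP10k in iXEN, the ESC value lying inside the range of the Elf5+ plates and the iXEN value inside that of the VE plates. Taken over all ExE wells, *Dppa4* differed little from VE wells, at 1.14-fold higher, and plate 3 had the opposite order, as did means of ln(TP10k + 1) over cells (log2 difference -0.055).

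*Utf1* separated the groups more widely. Epi wells had 7.93, 8.93 and 6.77 TP10k on plates 3, 4 and 5, Elf5+ cells 2.67, 2.92 and 2.65, VE wells 1.80, 1.92 and 1.33, and Elf5− cells 0.640, 0.801 and 0.539. The plate ranges of these 4 groups did not overlap, but the plates split 1 pool. For how many of all genes plates keep such orders was not counted, here or for *Dppa2*, *Dppa4* and *Dppa5a*. Taken over all ExE wells, *Utf1* was lower than in VE wells (log2 ratio -0.31), but higher without the minimum of genes (0.34). In 2D, *Utf1* was at 2.53 TP10k in ESC, 6.32 in iTSC and 1.35 in iXEN, so that iTSC stood between the Epi wells and the Elf5+ cells and iXEN within the range of VE wells. By mean level *Utf1* stood within the top 0.818% of the genes above 0 in Epi wells, the top 1.23% in iTSC, 4.01% in ESC and 4.67% in Elf5+ cells, but only within the top 19.2% in Elf5− cells. Single iTSC ran from 0 through a median of 5.81 to 19.04 TP10k, and single ESC from 0 through 2.42 to 9.06.

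*Dppa5a* had another order, with trophoblast-like cells lowest. Its mean was 223.1, 228.5 and 261.1 TP10k in Epi wells on plates 3, 4 and 5, where by mean it was the most abundant gene of the whole table, and 137.5 in ESC, where it ranked 2. VE wells held 71.3, 70.3 and 70.8 TP10k (rank 4 over all plates) and iXEN 34.7 (rank 13). Elf5+ cells held 5.80, 3.39 and 4.08 TP10k, Elf5− cells 2.76, 3.88 and 3.95, and iTSC 11.7 (rank 84). The Elf5+ and Elf5− plates overlapped, and all lay below every other group. In iTSC the level was uneven, from 0 through a median of 4.78 to 241.2 TP10k, while no ESC was below 71.9. The data go against the label of a kept gene for *Dppa5a*: it was 18.4-fold lower in ExE than in VE wells (plates 17.7 to 18.8-fold; 3.17% of 10836 genes were at least 4-fold lower) and 2.96-fold lower in iTSC than in iXEN. With the cells whose own list was highest, the ExE to VE difference was wider, a log2 ratio of -4.93 against -4.20.

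**Figure D1:**
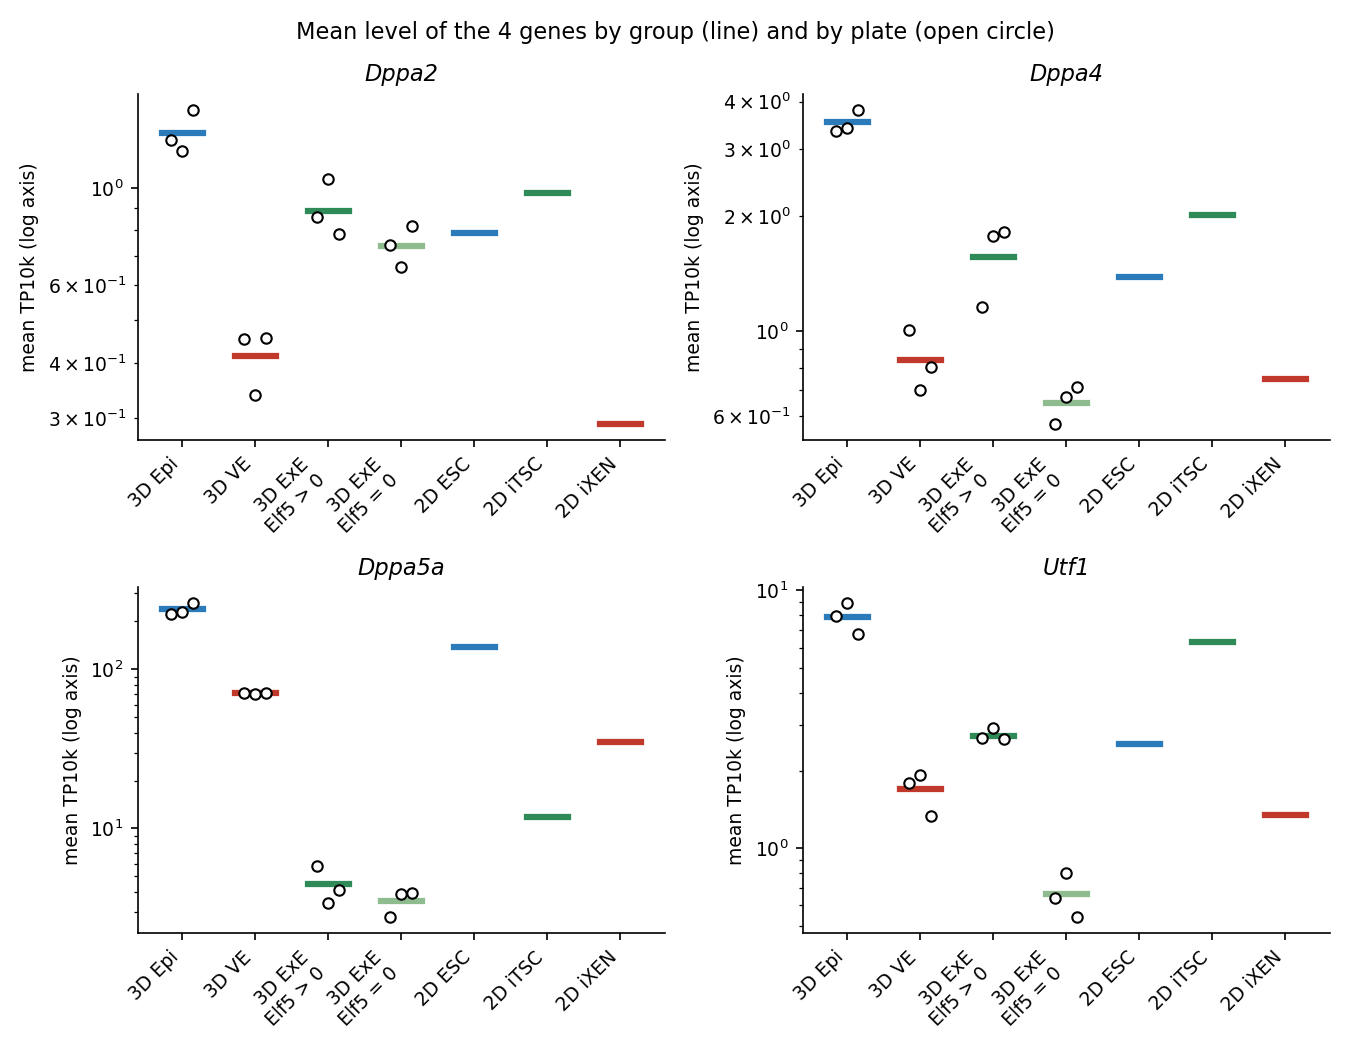
Mean level of *Dppa2*, *Dppa4*, *Dppa5a* and *Utf1* in TP10k (log axis) in the 4 groups of 3D cells and the 3 cultures in 2D. Lines are means over all cells of a group and open circles the means on plates 3, 4 and 5; *Dppa5a* is lowest in both ExE groups, whereas *Dppa4* and *Utf1* are lowest in Elf5− cells and *Dppa2* in iXEN.

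The share of cells with each message above 0 also differed between groups, though not in step with the means. *Utf1*, for instance, was above 0 in 98.6% of both ESC and iTSC, at means of 2.53 and 6.32 TP10k. Epi wells had *Dppa2* above 0 in 81.8% of cells (95% interval 77.1 to 85.95%), *Dppa4* in 94.3%, *Dppa5a* in 99.7% and *Utf1* in 98.4%. In Elf5+ cells the shares were 67.2% (58.02 to 75.6%), 73.1% (64.2 to 80.8%), 66.4% (57.2 to 74.8%) and 71.4% (62.4 to 79.3%). Elf5− cells kept *Dppa2* in 50.4% (43.8 to 57.01%), but *Dppa4* in 41.5% (35.1 to 48.1%), *Dppa5a* in 27.4% (21.7 to 33.5%) and *Utf1* in 22.6% (17.5 to 28.6%). Over all plates the Elf5+ and Elf5− intervals of each gene were apart, for *Dppa2* narrowly (lower limit 58.02% against upper limit 57.01%). Elf5+ cells also had more genes found, at medians of 5810 against 5211, and this order held on every plate. For how many of all genes such intervals were apart was not counted. The part of the number of genes found in these gaps was not tested. On plate 3 the share of *Dppa2* had the opposite order, with 62.8% in Elf5+ and 64.6% in Elf5− cells. VE wells had 53.02% for *Dppa2*, 66.0% for *Dppa4*, 99.4% for *Dppa5a* and 81.3% for *Utf1*. In 2D every share was above 80% in all 3 cultures, the lowest being *Dppa2* in iXEN at 81.6%.

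**Figure D2:**
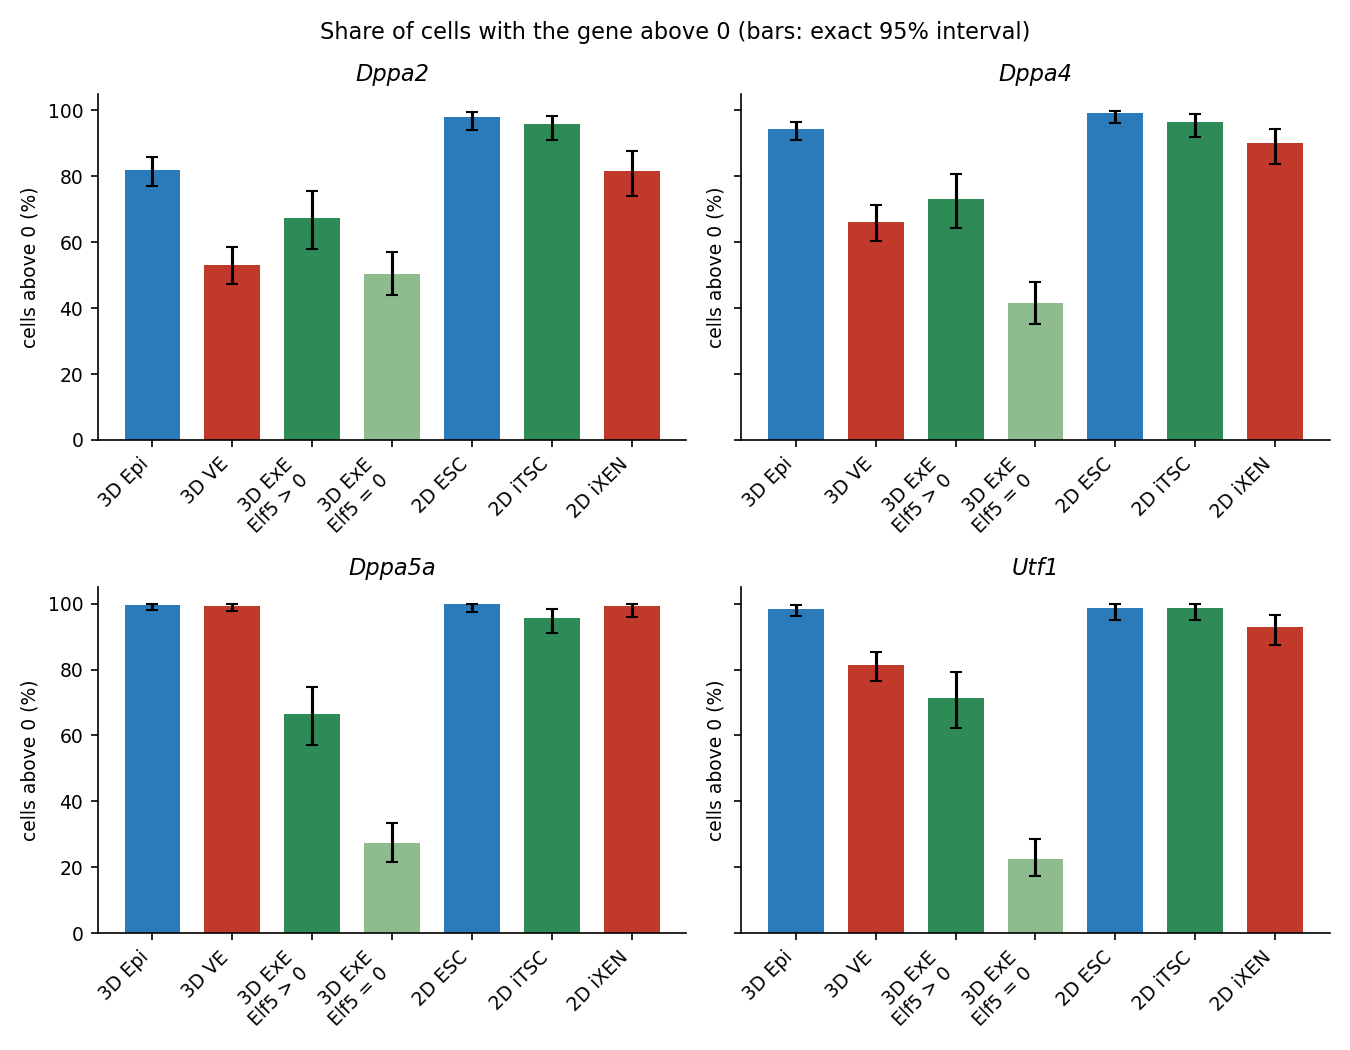
Percent of cells with each of the 4 genes above 0 by group, with exact 95% binomial intervals as error bars. In the Elf5− cells of ExE wells *Utf1* was above 0 in 22.6% and *Dppa5a* in 27.4% of cells. The 2D cells had more genes per cell, and the part of this in their shares was not tested.

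The sets of genes found in 1 cell were counted next. All 4 messages were present together in 79.3% of cells of Epi wells, 96.5% of ESC, 87.9% of iTSC and 76.6% of iXEN. The share was 35.6% in VE wells, 38.7% (29.9 to 48.02%) in Elf5+ cells and 8.97% (5.64 to 13.4%) in Elf5− cells. None of the 4 was found in 72 Elf5− cells (30.8%) and in 9 Elf5+ cells (7.56%), but in no cell of Epi or VE wells. Among cells above 0, *Utf1* averaged 2.94 TP10k in Elf5− and 3.83 in Elf5+ cells, *Dppa4* 1.57 and 2.15, *Dppa2* 1.46 and 1.32, and *Dppa5a* 12.9 and 6.78. The order of *Dppa5a* turned among cells with the ExE list highest, at 3.31 TP10k in Elf5− and 6.56 in Elf5+ cells above 0, and in Elf5− cells with the VE list highest it averaged 38.2 TP10k.

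The comparison of Elf5+ with Elf5− cells sets cells of ExE wells with a trophoblast stem cell factor above 0 against those with it at 0. In the latter *Elf5* may be present but not detected. Of the Elf5− cells 17.5% had the VE list highest and 14.5% the Epi list, against 5.04% and 0.840% of Elf5+ cells. *Utf1* was 4.11-fold higher in Elf5+ cells (plates 3.64 to 4.92-fold) and *Dppa4* 2.41-fold (2.03 to 2.66-fold), each in the same direction on all 3 plates. *Dppa2* was 1.21-fold higher, with plate 5 the other way, and *Dppa5a* 1.28-fold higher, with plate 4 the other way. A single plate 3 cell at 129.4 TP10k carries much of the Elf5+ mean of *Dppa5a*: without it the mean was 3.44 TP10k, below the 3.52 of Elf5− cells, and that of plate 3 was 2.85. With the highest cell of both groups left out, Elf5− cells averaged 3.11 TP10k. At a ratio of 2 or more, 2 of the 4 were higher in Elf5+ cells, where 4.58% of 10899 genes were. At 4-fold or more it was *Utf1* alone, against 0.881% of genes. Other lineages' markers moved with this division. The summed level of the 7 VE markers was 2.47 TP10k in Elf5− and 0.894 in Elf5+ cells, with none at 0 in either, and that of the 6 Epi markers was 0.916 and 0.557 TP10k, with *Fgf4* at 0 in both. In the Elf5− cells with the ExE list highest, *Utf1* averaged 0.429, *Dppa4* 0.603 and *Dppa5a* 0.833 TP10k, and in the 41 with the VE list highest *Dppa5a* averaged 14.9 TP10k. Restricted to cells with the ExE list highest, the log2 ratio of Elf5+ to Elf5− was 2.70 for *Utf1* and 2.42 for *Dppa5a*, against 2.04 and 0.35 over all cells, and with *Elf5* left out of the list it was 2.67 and 2.42. With cells of 6000 to 8500 genes, *Dppa5a* and *Dppa2* had the opposite order, with log2 ratios of -0.38 and -0.035.

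**Figure D3:**
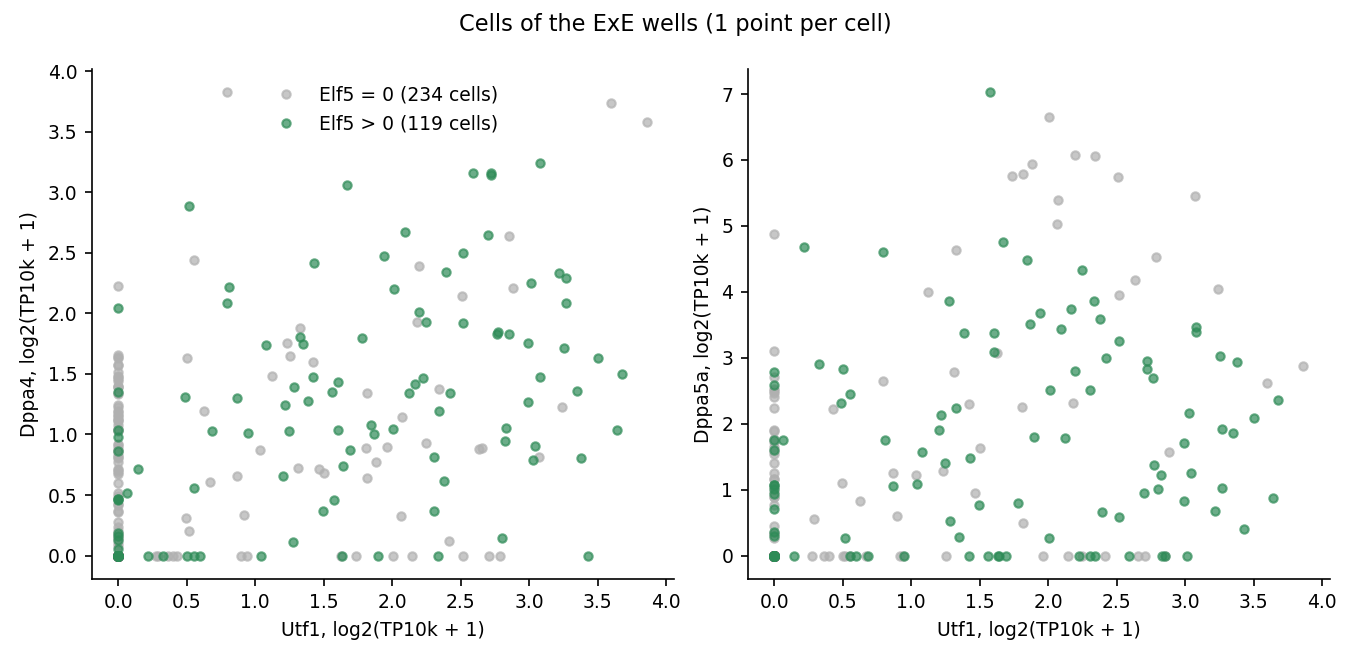
Cells of ExE wells (1 point per cell), with *Utf1* on the x axis and *Dppa4* (left) or *Dppa5a* (right) on the y axis, as log2(TP10k + 1); green points have *Elf5* above 0 and grey points have it at 0. Grey cells pile up at 0 for *Utf1*, and the highest *Dppa5a* levels include grey cells.

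Within Elf5+ cells *Utf1* and *Dppa4* varied together. Spearman's rho was 0.61 over all Elf5+ cells and 0.57, 0.54 and 0.74 on plates 3, 4 and 5, while with the number of genes found *Utf1* gave 0.20, 0.12 and 0.20 and *Dppa4* 0.43, 0.067 and 0.20 on these plates. The same pair gave 0.39 in Elf5− cells and in iTSC, 0.24 in ESC and 0.15 in Epi wells. *Dppa5a* and *Utf1* gave 0.55 in Elf5− cells (0.50, 0.59 and 0.56 by plate), 0.40 in Elf5+ cells and 0.44 in iXEN. The same pair gave -0.033 in VE wells and 0.048 in iTSC. It gave -0.30 in ESC and -0.19 in Epi wells, where nearly every cell held both. The Elf5− cells are mixed: the 41 with the VE list highest averaged 14.9 TP10k of *Dppa5a* and 1.41 of *Utf1*. Those with the ExE list highest averaged 0.833 and 0.429, and the part of this mixture in rho was not tested. *Dppa2* and *Dppa4*, the neighbours on chromosome 16, gave 0.11 to 0.31 in the 7 groups. These are descriptions over cells that share a library and a scaling to the same sum.

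A list of 12 trophoblast genes, *Elf5* among them, was used to divide the ExE wells in the same way. For each of the 12, cells with the gene above 0 were set against cells with it at 0, and *Utf1* was at least 2-fold higher in the cells with it for 9 of the 12. The same count was 9 for *Dppa4*, 2 for *Dppa2* and 3 for *Dppa5a*, which was also lower in the cells with the gene for 5 of the 12, once at least 2-fold. Over all genes, 2.26 to 6.84% were that much higher in these 12 divisions. The widest gaps of *Utf1* and *Dppa4* were with *Hand1*, a factor of trophoblast differentiation, and *Plet1*, a surface protein of trophoblast progenitors. The 96 cells with *Hand1* had 3.46 TP10k of *Utf1* and 2.04 of *Dppa4*, against 0.581 and 0.556 in the other cells (6.53% of genes were 2-fold higher), while *Dppa5a* was lower with *Hand1*, at 2.95 against 4.19 TP10k. *Dppa2* had its widest gap with *Fgfr2*, at 1.11 TP10k with and 0.497 without. On plates 3, 4 and 5 the *Utf1* means were 3.71, 3.18 and 3.53 TP10k with *Hand1* and 0.551, 0.633 and 0.564 without. The 35.98% of cells with *Plet1* had 2.95 TP10k of *Utf1* and 8.28 of *Dppa5a*, against 0.474 and 1.37 in those without. Division by *Cdx2* left *Utf1* at 1.27 with and 1.52 TP10k without, and *Dppa5a* at 2.28 with and 6.36 without (3.74% of genes were 2-fold lower with *Cdx2*). The 5 transgene factors, whose message cannot be told apart from the endogenous one, did not give like divisions: the log2 ratio of *Utf1* was 1.85 for *Eomes*, 1.23 for *Tfap2c*, 0.98 for *Ets2*, -0.26 for *Cdx2* and -0.27 for *Gata3*. Cells with the dividing gene also had more genes (5800 against 5221 for *Hand1*), and the part of depth in these gaps was not tested. The 47 cells of ExE wells with the VE list highest averaged 13.6 TP10k of *Dppa5a*. Those with the ExE list highest averaged 2.33, and the part of this mixture in the *Dppa5a* gaps was not tested.

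In iTSC none of the 4 genes was 2-fold higher with any of the 12 trophoblast genes, though 3.94 to 23.8% of all genes were. *Utf1* was 6.33 TP10k in the iTSC with *Hand1* and 6.27 in the 22 without, and 6.63 in those with *Elf5* against 4.79 in the 24 without. *Dppa5a* was at least 2-fold lower in the cells with the gene for 6 of the 12 (7.11 to 18.5% of all genes in those 6), for instance 6.83 TP10k with *Hand1* and 38.2 without. These divisions are of the same cells, and those without the gene were as few as 10 (*Tfap2c*). A single iTSC reached 241.2 TP10k of *Dppa5a* beside a median of 4.78, and the part of single cells in these ratios was not tested. In the 26 iTSC whose Epi list was highest, *Dppa5a* averaged 31.04 TP10k against 7.36 in those with the ExE list highest, while *Utf1* was 7.93 against 5.95, *Dppa4* 1.95 against 2.04 and *Dppa2* 1.161 against 0.929.

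**Figure D4:**
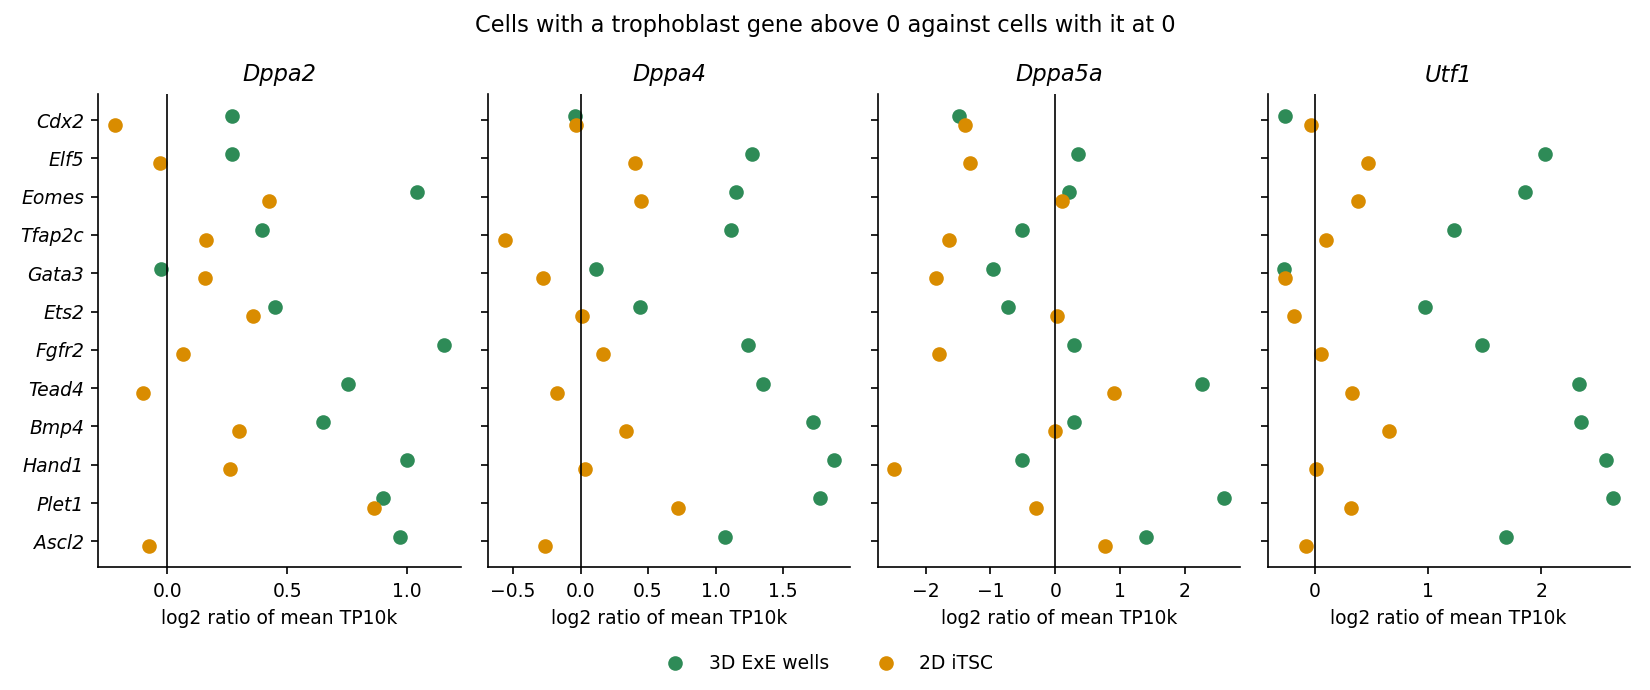
Log2 ratio of the mean TP10k of each of the 4 genes in cells with a trophoblast gene above 0 over cells with it at 0, for 12 trophoblast genes, in ExE wells (green) and iTSC (orange). In ExE wells *Utf1* and *Dppa4* lie right of a log2 ratio of 1 for 9 of 12 genes, in iTSC for none; several iTSC divisions rest on few cells without the gene, down to 10 for *Tfap2c*.

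Whether cells with the 4 messages were those with core pluripotency factors was looked at through *Pou5f1*, *Nanog* and *Sox2*. In ExE wells the 51 cells with *Pou5f1* above 0 had 2.77 TP10k of *Utf1* against 1.12 in those without, and 1.98 against 0.789 of *Dppa4*. For *Dppa5a* the log2 ratio of cells with to cells without *Pou5f1* was 1.83. With *Nanog* above 0 (31.4% of cells) *Utf1* was 2.16 against 0.998 TP10k. With *Sox2* above 0 *Utf1* was 1.76 against 0.959 TP10k. *Dppa2* was 1.40 against 0.683 TP10k with *Pou5f1* (plate 4 the other way), 1.17 against 0.611 with *Nanog* and 1.02 against 0.546 with *Sox2*. *Sox2* was not limited to pluripotent groups here. It was at 0.312 TP10k in ExE wells against 0.0229 in VE wells, and was above 0 in 97.2% of iTSC. *Dppa5a* did not follow these factors alike: it was 3.48 against 4.03 TP10k with *Nanog* and 1.79 against 5.97 with *Sox2*. It was lower with *Sox2* on all 3 plates. VE wells had 70.8 TP10k of *Dppa5a* and 4.53 of *Pou5f1*, and 47 cells of ExE wells had the VE list highest. Cells with a factor also had more genes (5729 against 5362.5 for *Pou5f1*). The parts of this mixture and of depth were not tested, and the share of all genes was not counted for these divisions. In iTSC, *Pou5f1* divided *Dppa5a* (15.5 in 90 cells with it, 5.13 in 51 without) but little of *Utf1* (6.83 against 5.41 TP10k) or *Dppa4* (1.92 against 2.20). In the iTSC with *Pou5f1* at 0, mean *Utf1* was above the 2.53 TP10k of ESC.

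iTSC were set against 2i/LIF ESC to see what level of each gene trophoblast cells had in 2D. *Utf1* was 2.50-fold higher in iTSC, *Dppa4* 1.46-fold higher and *Dppa2* 1.23-fold higher, and *Dppa5a* was 11.7-fold lower. As a difference of mean log2(TPM + 0.1) the signs of *Dppa4* (-0.11) and *Dppa2* (-0.058) turned, and without the minimum of genes that of *Utf1* did (-2.28). The minimum had kept 44.8% of ESC and 49.8% of iTSC wells. Of the 4, 1 was 2-fold higher (22.3% of 13788 genes were) and 1 was 4-fold lower (4.74%). The 8 core pluripotency genes set the scale for loss. *Pou5f1* was at 6.94% of its ESC level, *Nanog* at 2.24% and *Fgf4* at 1.88%, 5 of the 8 were at least 4-fold lower, and the median was 6.72%, where the median over all genes tested was 113.1%. *Lin28a* (147.3%), *Sox2* (56.7%) and *Sall4* (35.1%) were nearer to ESC. *Dppa5a*, at 8.53% of ESC, lay among the lost genes and the other 3 did not.

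In embryoids, ExE wells were set against Epi wells. *Dppa2* was 1.70-fold lower in ExE wells, *Dppa4* 3.68-fold, *Utf1* 5.78-fold and *Dppa5a* 61.7-fold lower (58.2 to 65.3-fold by plate), each lower on all 3 plates. Of the 4, 3 were at least 2-fold lower (9.39% of 10886 genes) and 2 at least 4-fold (3.72%). The core list had 5 of 8 at least 4-fold lower, with a median of 2.61% beside 107.02% over all genes. *Dppa2*, *Dppa4* and *Utf1* thus had opposite signs in 2D and 3D. The pluripotent groups themselves differed: Epi wells had more of each gene than ESC, by 1.69-fold for *Dppa2*, 2.55-fold for *Dppa4*, 1.73-fold for *Dppa5a* and 3.12-fold for *Utf1*, all on 3 of 3 plates, and 2 of the 4 were 2-fold higher (13.6% of genes). The sign of *Dppa2* turned as a difference of mean log2(TPM + 0.1) (-0.55) and that of *Utf1* without the minimum of genes (-1.70).

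**Figure D5:**
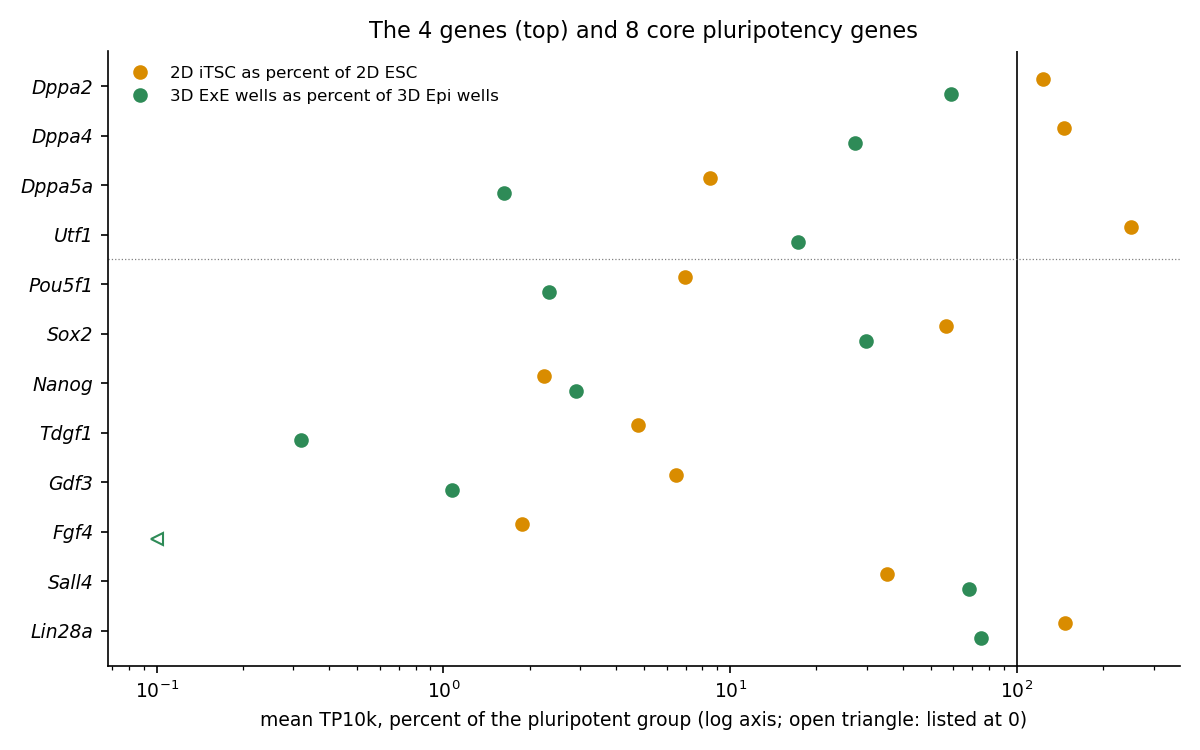
Mean level of the 4 genes (top) and of 8 core pluripotency genes in trophoblast-like cells as percent of the pluripotent group (log axis), for iTSC against ESC (orange) and ExE against Epi wells (green). *Dppa2*, *Dppa4* and *Utf1* lie right of 100% in 2D (signs that turn in the alternatives given for iTSC against ESC) and left of it in 3D, and *Dppa5a* lies near *Pou5f1* in both; the open triangle marks *Fgf4*, listed at 0 in ExE wells.

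Set directly against each other, ExE wells were below iTSC for all 4 genes on every plate, by 1.24-fold for *Dppa2*, 2.10-fold for *Dppa4*, 3.04-fold for *Dppa5a* and 4.64-fold for *Utf1*. At least 2-fold lower were 3 of the 4, where 14.7% of 13012 genes were. Elf5+ cells came nearer: *Dppa2* was 1.10-fold lower, with plate 4 the other way, *Dppa4* 1.29-fold, *Utf1* 2.31-fold and *Dppa5a* 2.60-fold lower (2 of the 4 at 2-fold or more, and 16.3% of genes). These comparisons cross media, plates and gene counts per cell, whose parts were not tested. Between cells of 6000 to 8500 genes *Dppa2* had the opposite sign, with a log2 ratio of ExE wells to iTSC of 0.065.

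Endoderm-like cells held less of all 4 genes than pluripotent ones. VE wells were below Epi wells by 3.21-fold for *Dppa2*, 4.20-fold for *Dppa4*, 3.36-fold for *Dppa5a* and 4.65-fold for *Utf1*, all 4 past 2-fold (16.6% of 10662 genes) and 2 past 4-fold (7%). iXEN were below ESC by 2.71-fold for *Dppa2*, 1.85-fold for *Dppa4*, 3.97-fold for *Dppa5a* and 1.88-fold for *Utf1* (2 of the 4 past 2-fold, and 19.2% of genes). iTSC held more than iXEN of *Dppa2*, *Dppa4* (2.70-fold) and *Utf1* (4.69-fold), 3 of the 4 at 2-fold or more, where 21.1% of genes were. VE wells had 2.04-fold more *Dppa5a* than iXEN (2.03 to 2.06-fold by plate; 5.52% of genes were 2-fold higher) and 1.43-fold more *Dppa2*.

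The other lists placed these values among related genes. Of 11 other ES cell-associated transcripts in the table, 3 were 4-fold lower in iTSC than ESC (*Dppa3*, *Tcl1* and the threonine dehydrogenase *Tdh*), and *Tex19.1* (163.1%), *Trap1a* (160.05%) and *Sox15* (138.5%) were above ESC like *Utf1*; the median was 50.9%. In Elf5+ cells *Tex19.1* stood at 1.81 TP10k and in Elf5− cells at 0.756. Of the 10 naive pluripotency genes 5 were 4-fold lower in iTSC (*Klf2*, *Klf4*, *Tbx3*, *Fbxo15* and *Prdm14*), with a median of 23.9%. Among 5 measured relatives by name or KH domain, *Dppa3* and *Ooep* were 4-fold lower in iTSC, at 15.3% and 2.99% of ESC. *Dppa1* went the other way: it was listed at 0 in Epi wells and ESC, and stood at 0.751 TP10k in Elf5+ cells, 0.528 in Elf5− cells and 0.0318 in iTSC. None of 12 COMPASS and Polycomb genes, whose complexes meet Dppa2 and Dppa4 at bivalent promoters, was 4-fold apart between iTSC and ESC in either direction (median 75.2%). Of 10 germline genes tested, some of which Dppa2 and Dppa4 are known to switch on, 3 were 4-fold higher in iTSC than ESC (*Ddx4*, *Taf7l* and *Tdrd1*) and 2 lower (*Dazl* and *Hormad1*). Of all genes, 8.78% were 4-fold higher in iTSC. The 3 higher genes stood at only 0.0193 to 0.158 TP10k in iTSC. This was not particular to iTSC: in iXEN 4 were 4-fold higher than in ESC, these 3 and *Sycp3* (9.05% of all genes). *Dazl* and *Hormad1* were again 4-fold lower. Of the 12 trophoblast genes 10 were 4-fold higher in iTSC than ESC and 8 in ExE than Epi wells (6% of all genes). Markers of primordial germ cells, which also transcribe several of the 4 genes, summed to 0.160 to 1.499 TP10k with the highest sum in ESC; *Prdm14* was at 0 in both ExE groups.

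Levels of neighbouring genes were looked at beside these. *Morc1*, 111.514 kb beyond *Dppa2*, was at 0.349 TP10k in Epi wells and 0.674 in ESC but at 0.00299 in Elf5+ cells and 0.0314 in iTSC. *Ooep* beside *Dppa5a* was at 1.13 in ESC, 0.496 in Epi wells and 0.0337 TP10k in iTSC, and *Kndc1* beside *Utf1* was at most 0.0542 TP10k in any group.

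The genes whose group means were most like each of the 4 were found by Pearson's r of mean ln(TP10k + 1) over 15 points (4 groups on 3 plates and 3 cultures) among 11971 genes. Over these points *Dppa4* and *Utf1* were each other's nearest gene, with r = 0.97. *Dppa2* followed *Dppa4* at 0.91 and *Utf1* at 0.83, and *Dppa5a* gave only 0.33 with *Dppa2*, 0.62 with *Dppa4* and 0.65 with *Utf1*. Outside the 4, genes most like *Dppa2* included *Zfp281* (0.96), *Rad54b*, *Nfyb* and *Sox15*. Those most like *Dppa4* included *Olfr1388* (0.94), *Wiz*, *Bub1* and *Eno1*. For *Dppa5a* the nearest were *Tdh* (0.96), *Wapl*, *Serpina3m*, *Ssr2* and *Zscan10*, and for *Utf1* they were *Rhd* (0.90), *Etl4*, *Eno1*, *Zmynd8* and *Alg13*. The 15 points include plates of 1 pool and so are not independent, and with Spearman's rho only 1 of the 5 was shared for each gene.

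The assignment of reads bears unequally on the 4 genes. kallisto, the program used upstream, matches reads through runs of 31 bases. No such run of *Utf1* occurred in the transcript of another gene, whereas 33.8% of the 2411 runs of *Dppa2*, 40.1% of the 1659 of *Dppa4* and 57.2% of those of *Dppa5a* did. Sharing of 1% or more was with 7 pseudogenes for *Dppa2*, 2 for *Dppa4*, and 8 pseudogenes and 2 protein-coding genes for *Dppa5a*. The largest single overlap of *Dppa5a* was with *Pigp*, 22.8% of its runs. *Pigp* was at 0.503 to 1.29 TP10k in the 7 groups, highest in Elf5− cells where *Dppa5a* was lowest, with rho between the 2 genes of -0.19 to 0.13 within groups. Levels of *Dppa2*, *Dppa4* and *Dppa5a* are in this respect less certain than those of *Utf1*.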

How the data were processed

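The deposited table gave TPM for 20999 genes in 1931 wells, 1 sorted cell each, 39 of them without values. Per the study's methods, the authors made these TPM by pseudoalignment with kallisto to GRCm38 transcripts (Gencode vM16), filtered mitochondrial, ribosomal and pseudogenes and summed transcripts to genes; reads were demultiplexed with bcl2fastq 2.20. TPM keep no read counts, so sequencing depth is unknown and genes per cell stand in for it. No columns of per-sample values were left unused (0).

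TPM were rescaled to 10000 per cell (TP10k) in Python 3.11.15 with pandas 2.3.3, numpy 2.4.6 and scipy 1.17.1, keeping cells with at least 2500 genes above 0. Wells of columns 1 to 8, 9 to 16 and 17 to 24 of the embryoid plates were taken as Epi, VE and ExE. Groups were compared by ratios of mean TP10k, overall and by plate. Percentages of all genes past 2-fold or 4-fold were taken over genes found in at least 10% of cells of either group. Conditions are single samples, so no p-values were computed. Shares have exact binomial intervals at 95%. The scripts were tested on simulated data. The genes named are the 4 members, all genes of fixed lists and the 5 genes most like each member among those found in at least 25% of cells of a group, some of which are not reported here; *Pigp*, *Morc1* and *Kndc1* were named after their values were seen, as were *Otx2*, *Nodal*, *Lefty1* and *Nanos3*. The members and lists were chosen with earlier results of these data known. Alternatives covered the minimum of genes, the scale and pseudocount, the marker lists, the *Elf5* limit, plates left out and the correlation. RefSeq GRCm38.p6 promoters and Gencode vM21 transcripts served as references.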

Additional observations from a re-analysis of the deposited data

Results flagged for a closer look

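*Dppa2*, *Dppa4* and *Utf1* differed between trophoblast-like and pluripotent groups in opposite directions in embryoids and in 2D. The log2 ratio of mean TP10k in ExE wells over Epi wells was -0.76 for *Dppa2*, -1.88 for *Dppa4* and -2.53 for *Utf1*. In iTSC over 2i/LIF ESC it was 0.30, 0.54 and 1.32 for the same 3 genes. The difference between 3D and 2D was not tested, since each side is 1 sample, and the trophoblast-like groups come from 5-Factor ESCs while the pluripotent ones are Kermit ESCs. The 2D signs of *Dppa2* and *Dppa4* turn on the mean log2(TPM + 0.1) scale, and that of *Utf1* turns without the minimum of genes.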

How the results depend on the processing

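Values are log2 ratios of mean TP10k unless named otherwise, and a value was called moved where it changed by more than 1.5-fold. Over all alternatives 46 levels moved, 13 changed sign and the others were unmoved; all 28 values stayed with TPM as deposited and all 28 with a minimum of 4000 genes, as did all 28 shares at 1 TPM and all 4 ratios each with *Elf5* at 1 TPM or more and with *Elf5* or *Eomes* above 0. Ratios of VE over Epi wells, iXEN over ESC, VE wells over iXEN and Elf5+ cells over iTSC were not run under the alternatives. The cause of the changes below was not tested.

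As differences of mean log2(TPM + 0.1), in which cells at 0 weigh heavily, 4 signs turned: *Dppa2* in iTSC over ESC (-0.058) and Epi over ESC (-0.55), and *Dppa4* in iTSC over ESC (-0.11) and ExE over VE (-1.13). Moved were *Dppa2* in iTSC over iXEN (2.36), ExE over iTSC (-3.31), ExE over Epi (-2.82) and Elf5+ over Elf5− (1.4999), and *Dppa4* in ExE over iTSC (-4.44), ExE over Epi (-5.40) and Elf5+ over Elf5− (3.33). *Dppa5a* moved in iTSC over ESC (-5.32), iTSC over iXEN (-2.99), ExE over iTSC (-6.54), ExE over Epi (-12.47), ExE over VE (-10.65) and Elf5+ over Elf5− (4.13), and *Utf1* in ExE over iTSC (-7.19), ExE over Epi (-7.78), ExE over VE (-3.89) and Elf5+ over Elf5− (5.31).

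As differences of mean ln(TP10k + 1) in log2 units, *Dppa4* in ExE over VE turned (-0.055). Moved were *Dppa2* in iTSC over iXEN (0.54) and ExE over VE (0.19), *Dppa4* in iTSC over iXEN (0.69) and Elf5+ over Elf5− (0.58), *Dppa5a* in iTSC over ESC (-4.40), iTSC over iXEN (-2.19), ExE over Epi (-6.72) and ExE over VE (-4.99), and *Utf1* in iTSC over iXEN (1.55) and Elf5+ over Elf5− (1.04).

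Without a minimum of genes, which adds the wells with fewer than 2500 genes, 4 signs turned: *Dppa2* in ExE over iTSC (0.43) and *Utf1* in iTSC over ESC (-2.28), Epi over ESC (-1.70) and ExE over VE (0.34). Moved were *Dppa2* in iTSC over iXEN (1.05) and Epi over ESC (1.52), *Dppa4* in Epi over ESC (3.10) and ExE over Epi (-2.73), *Dppa5a* in iTSC over iXEN (-2.28) and ExE over iTSC (-0.87), and *Utf1* in ExE over iTSC (-1.15), ExE over Epi (-1.73) and Elf5+ over Elf5− (0.66).

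With cells of 6000 to 8500 genes, *Dppa2* turned in ExE over iTSC (0.065) and Elf5+ over Elf5− (-0.035) and *Dppa5a* in Elf5+ over Elf5− (-0.38), and *Dppa4* moved in Elf5+ over Elf5− (0.68). With 3D cells whose own marker list was highest, *Dppa5a* moved in ExE over iTSC (-2.33), ExE over Epi (-6.67), ExE over VE (-4.93) and Elf5+ over Elf5− (2.42), and *Utf1* in Elf5+ over Elf5− (2.70). The same limit on iTSC, and the ExE over Epi ratio as a whole, were added after seeing the data; *Dppa5a* then stood at -4.22 in iTSC over ESC and -2.24 in iTSC over iXEN. Added too were the 3D limit with *Elf5* left out of the ExE list, which gave Elf5+ over Elf5− at 2.42 for *Dppa5a* and 2.67 for *Utf1*, and leaving out the highest cell of each group, which gave 0.15 for *Dppa5a*. Leaving out a plate turned 1 sign, *Dppa5a* in Elf5+ over Elf5−, which ran from -0.053 (without plate 3) to 0.57 (without plate 4).

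Among genes found in at least 25% of cells, the background at 4-fold was 1.66% for higher in Epi than ESC, 4.06% for higher in ExE than VE, 1.72% and 2.75% for higher and lower in ExE than iTSC, and 0.441% and 0.104% for higher and lower in Elf5+ cells. With Spearman's rho, 1 of the 5 most alike genes was shared for each of *Dppa2*, *Dppa4*, *Dppa5a* and *Utf1*. No paired analysis was possible because each condition is 1 sample and no test between conditions was made. TPM give no read counts, so a gene at 0 in a cell may be present below what was sequenced.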

Other observations

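Within VE and Epi wells *Utf1* differed with some lineage genes, which were singled out after their values were seen. In VE wells *Utf1* averaged 3.00 TP10k in the 60 cells with *Nodal* above 0 against 1.39 in those without, and 3.06 in the 47 cells with *Lefty1*, a Nodal antagonist, against 1.45 in those without. *Dppa2* was also higher with both, at 0.607 against 0.370 and 0.651 against 0.374 TP10k, on every plate. *Dppa4* did not share this, at 0.819 against 0.846 and 0.903 against 0.830 TP10k. *Dppa5a* ran the other way, at 52.7 against 75.1 TP10k with *Nodal* and 57.7 against 73.1 with *Lefty1*. In Epi wells *Utf1* averaged 8.96 TP10k in cells with *Otx2*, a factor of the primed epiblast, against 6.64 in those without. By the same division *Dppa4* was at 3.74 against 3.29 and *Dppa2* at 1.51 against 1.13 TP10k. Division of the Epi wells by *Tfap2c* and *Nanos3* gave *Utf1* log2 ratios of -0.097 and 0.054.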
